A study of Mus musculus with 20 samples.

Results

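The genes described here are the chaperones, disulfide enzymes, degradation factors, stress sensors and protein translocation factors of the endoplasmic reticulum (ER) and its unfolded protein response (UPR), in mouse livers after knockdown of HuR. Members were the genes of a named list of 40 whose symbol, ignoring case, stood in both the human and the mouse expression table, and 39 of 16767 symbols shared by the tables met this rule: 11 chaperones, 8 disulfide enzymes, 7 genes of ER-associated degradation (ERAD), 6 sensors and transcription factors, and 7 genes of translocation and signal peptide processing. The 40th, ERO1B, a disulfide oxidase, is listed in the mouse table under its older symbol Ero1lb and was left out. In the human table it was at 9.58 to 12.6 TPM with HuR KD and 8.72 to 13.7 TPM with LacZ.

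The series asks how far the same post-transcriptional event changes human and mouse liver genes alike. HuR, encoded by ELAVL1, is an RNA-binding protein that binds and often stabilizes messenger RNAs. Its knockdown was done with adenoviruses that carry an shRNA, designed for mouse HuR in the WT mice and for human HuR in the humanized mice, given intravenously at 2000000000 pfu per mouse, with a LacZ control virus at the same dose, and livers were taken 7 days later after a 4 h fast. The WT groups were male C57BL/6 mice, 6 with HuR KD and 6 with LacZ. The humanized groups, 4 with HuR KD and 4 with LacZ, were TK-NOG mice, immune-deficient NOG animals that carry a herpes simplex thymidine kinase transgene under the mouse albumin promoter. They received 25 mg/kg of ganciclovir at 8 to 9 weeks of age, which kills the host cells that express the kinase, and later 1000000 cryopreserved primary human hepatocytes into the spleen, and they were used once serum human albumin, measured 8 to 12 weeks after transplantation, was above 0.5 mg/ml. Their table holds human genes only, so it describes the grafted hepatocytes, and the mouse cells that remain in those livers are not analysed here. All 20 mice carried an adenovirus, and no group without virus was used.

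Proteins that a hepatocyte secretes enter the ER through the SEC61 channel, lose their signal peptide, and fold with the help of the HSP70 chaperone HSPA5 (BiP), its DNAJ cofactors, the lectin chaperones calnexin and calreticulin, and the protein disulfide isomerases. Chains that fail to fold are returned to the cytosol by ERAD. When folding falls behind, the sensors ERN1 (IRE1), EIF2AK3 (PERK) and ATF6 start the UPR, in which XBP1 and the cleaved form of ATF6 raise transcription of chaperone and ERAD genes. The liver makes much of the blood's protein and is rich in this machinery.

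The response element through which ATF6 and XBP1 act was first described in the promoters of these chaperone genes, and its letters in the mouse members are shown because they group genes that the results below describe. The ER stress response element (ERSE) is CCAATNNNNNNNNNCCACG. It was searched on both strands of the 300 bases around each RefSeq start site (250 before to 50 after, build GRCm38.p6), and 32 of the 39 members had such a promoter sequence. It was found in 9 of these 32, against 0.137% of the 27025 genes with a promoter. Each copy is printed 5′ to 3′ on the strand that carries it, with the fixed letters in capitals and the spacer in lower case:
Hspa5, chr2:34772025-34772043, plus strand: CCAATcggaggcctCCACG
Hsp90b1, chr10:86705638-86705656, minus strand: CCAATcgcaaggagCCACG
Hsp90b1, chr10:86705533-86705551, plus strand: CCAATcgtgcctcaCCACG
Calr, chr8:84847075-84847093, plus strand: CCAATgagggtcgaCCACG
Canx, chr11:50325800-50325818, minus strand: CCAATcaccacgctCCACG
Dnajc3, chr14:118937827-118937845, plus strand: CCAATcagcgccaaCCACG
Pdia6, chr12:17266491-17266509, plus strand: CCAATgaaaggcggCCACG
Creld2, chr15:88819520-88819538, minus strand: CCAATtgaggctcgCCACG
Derl3, chr10:75893242-75893260, minus strand: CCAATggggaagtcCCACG
Syvn1, chr19:6046532-6046550, plus strand: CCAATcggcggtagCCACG
Every copy lay before the RefSeq start site. For Hspa5 the copy, at -65 to -47 from that site, lies inside the GENCODE gene span given below. The related element ERSE-II, ATTGGNCCACG, which holds the reverse complement of CCAAT and the same CCACG, was found in 2 other members and in 0.0444% of genes:
Herpud1, chr8:94386377-94386387, plus strand: ATTGGgCCACG
Dnajb11, chr16:22857852-22857862, plus strand: ATTGGcCCACG
The UPR element TGACGTG was found in Hspa5 and Txndc5 and in 2.22% of genes, and the copy in Hspa5 did not overlap its ERSE.

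The tables hold gene levels in TPM, transcripts per 1000000, a level per length of gene. Read totals rebuilt from the steps between low TPM values ran from 2670469 to 20302454 in the humanized livers and from 1423985 to 44668272 in the WT livers. WT LacZ 2 (1423985 reads) and HuR KD 6 (12960373 reads) were the shallowest of their groups and stood apart on the first and second principal component, in that order, and in the humanized livers HuR KD 4 and LacZ 2 were the deepest and deviated together from their group means (r = 0.53 across genes). Counts below are therefore also given without these pairs. The 10 hepatocyte markers summed to between 43010 and 92940 TPM in the humanized livers. At the threshold used below 2 of them rose with HuR KD and 0 fell, where 3.60% of all genes rose. In the WT livers 9 of the 10 were found and summed to between 86650 and 101600 TPM. There 1 fell and 0 rose, where 6.94% of all genes fell. Human markers of plasma and B cells, T and NK cells, Kupffer cells and endothelium summed to at most 1.24 TPM per list in the humanized livers. Fewer cells of a type and less RNA per cell cannot be told apart in bulk liver. The replicates are numbered livers of a group, and p-values set the difference between groups against the spread between livers.

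Knockdown was checked first. Human ELAVL1 (ENSG00000066044.15) was at 4.05, 2.37, 3.54 and 3.90 TPM with HuR KD and at 5.76, 4.77, 6.17 and 5.99 TPM with LacZ, so every knockdown liver was below every control, and its mean level was 61.0% of LacZ (exact permutation p = 0.0286, two-sided, the smallest that 4 against 4 livers allow). The limma log2 fold change was -0.59 ± 0.17 (SE, adjusted p = 0.214). In the WT livers, Elavl1 (ENSMUSG00000040028.10, chr8:4285382-4325413, minus strand, GRCm38) ran from 3.72 through a median of 4.97 to 5.62 TPM with HuR KD and from 8.58 through 9.48 to 10.7 TPM with LacZ. These groups did not overlap either, and the mean was 51.7% of LacZ (log2 fold change -0.83 ± 0.09, limma adjusted p = 0.00105).

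Many of the listed genes were lower with HuR KD in WT livers. Of the 39 members, all of which were expressed at a mean of at least 1 TPM and were tested, 22 fell at an unadjusted limma p under 0.05, the threshold of the study's methods, none rose, and 17 did not pass. Among all 15090 mouse genes tested, 16.0% passed the same threshold, 6.94% lower and 9.09% higher. With median-of-ratios scaling 23 members fell, where 8.07% of all genes fell and 8.15% rose. The median log2 fold change was -0.24 over the members and 0.03 over all genes, and 35 of the 39 values were below 0. After Benjamini-Hochberg adjustment over all genes 2 members remained, Calu and Herpud1, where 0.888% of all genes passed. Without HuR KD 6 and LacZ 2, 18 members fell and none rose, at a median of -0.18, against 7.80% of all genes that fell. Dnajb11, Hspa5, Manf, Pdia6, Txndc5 and Derl3 then missed the threshold, while Erp44 and Xbp1 passed it.

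In the humanized livers 37 members were tested, and 2 rose (CREB3L3 and CRELD2), 5 fell (CALU, DNAJC3, EDEM1, SEL1L and SSR3) and 30 did not pass. Over all 12738 human genes tested 11.5% passed, and 3.60% rose and 7.87% fell, or 6.44% and 6.59% with median-of-ratios scaling. The median log2 fold change was -0.02 over the members and -0.05 over all genes. The sign of the members' median changed with median-of-ratios scaling (0.06), quantile normalization (0.05) and other settings, so the members as a whole had no settled direction there. The median over all genes changed sign with these scalings too (0.0142 and 0.0105). No member passed the adjusted threshold, which 0.212% of all genes did. Without HuR KD 4 and LacZ 2, 9 members fell and 1 rose, against 11.2% and 4.48% of all genes, and HSPA5, MANF, SDF2L1 and XBP1 were then among those that fell. Both untested members were at or near 0 in the human table: the ERAD gene DERL3 was listed at 0 in all 8 livers, and the large chaperone HYOU1 was listed at 0 in 7 and at 0.0117 TPM in HuR KD 4. As many as 59 protein-coding genes of this table are listed at 0 in every liver although the mouse gene of the same symbol averaged at least 20 TPM, so a listed 0 is not read as absence of the transcript. Whether reads were also missed for human genes with low values above 0, such as CRELD2 and CANX, was not tested.

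**Figure D1:**
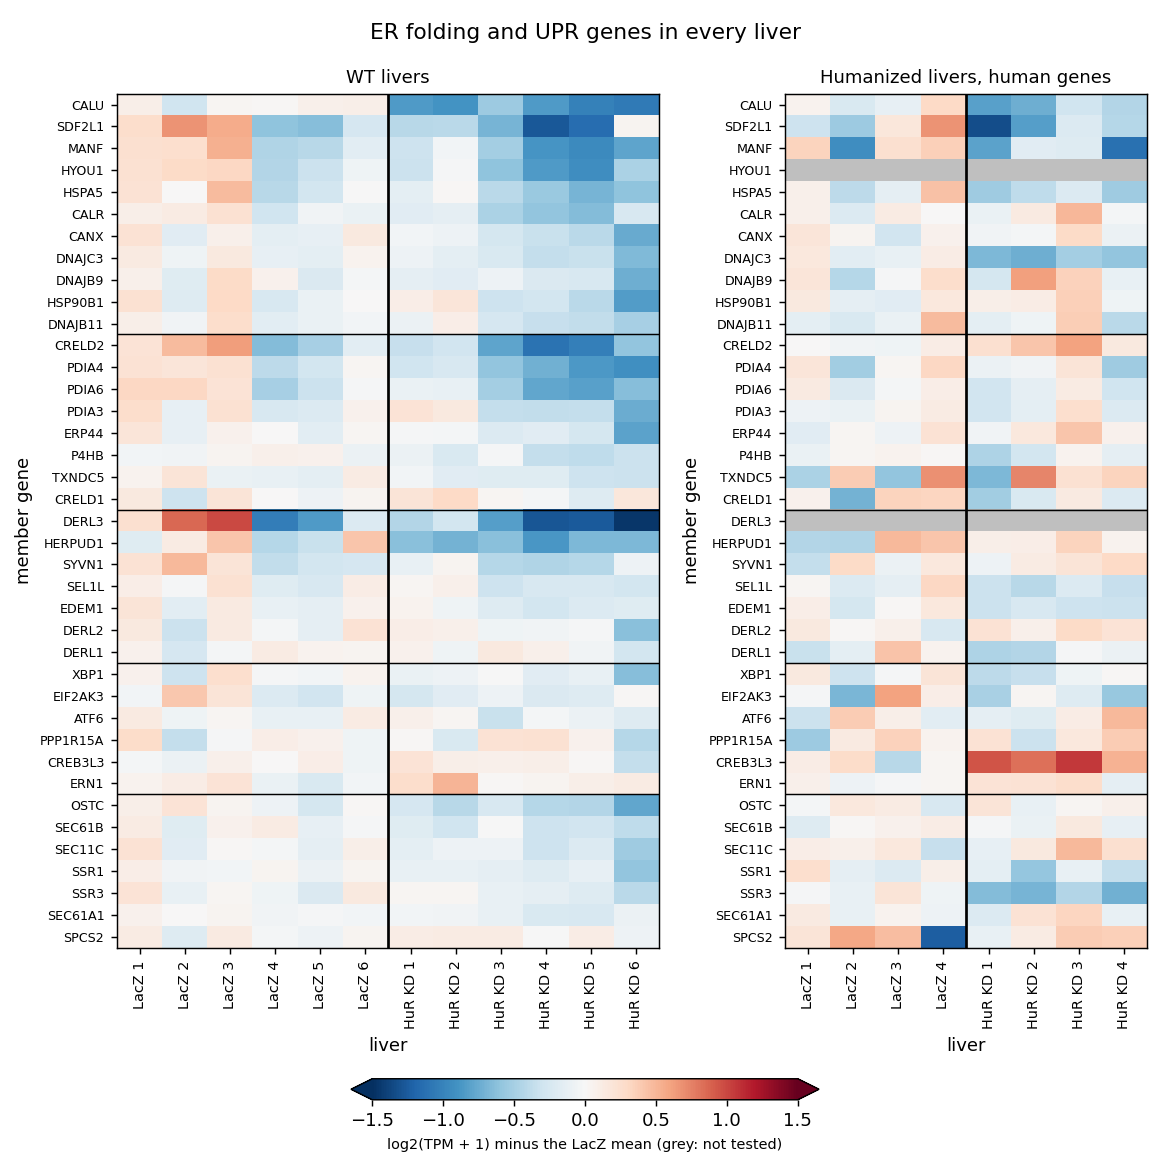
Level of each of the 39 members (rows, grouped by role, with WT fold change as the order within a role and human spelling for both tables) in each liver (columns), as log2(TPM + 1) minus the mean of the LacZ livers of the same table, with grey for the 2 members not tested in the humanized livers. In the WT panel 26 to 35 of 39 members were below the LacZ mean in each HuR KD liver and 4 to 34 in each LacZ liver (34 in LacZ 5, 29 in LacZ 4), while the humanized panel shows both signs.

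Of the 11 chaperones, 10 fell in WT livers and only Hsp90b1, the ER member of the HSP90 family, did not pass (log2 fold change -0.26 ± 0.16). The median over the chaperones was -0.38. Hspa5 (ENSMUSG00000026864.13, chr2:34771970-34777547, plus strand), the central HSP70 chaperone of the ER, ran from 393 through a median of 456 to 644 TPM with HuR KD and from 478 through 636 to 884 TPM with LacZ. HuR KD 2, at 644 TPM, lay above the control median, so the groups overlapped. The mean fell to 75.5% of LacZ (log2 fold change -0.40 ± 0.16, limma adjusted p = 0.246), the exact permutation p was 0.0584, and the limma call was lost without HuR KD 4, 5 or 6 or LacZ 1 or 3, over a range of -0.48 to -0.30.

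Calu (ENSMUSG00000029767.16, chr6:29348069-29377110, plus strand), which encodes calumenin, a calcium-binding protein of the secretory pathway, separated the groups most clearly. It ran from 24.8 through 28.5 to 35.9 TPM with HuR KD and from 42.9 through 54.9 to 56.3 TPM with LacZ. No knockdown liver reached the lowest control, which was the shallow LacZ 2, and the mean was 54.1% of LacZ (log2 fold change -0.87 ± 0.09, limma adjusted p = 0.00105, exact permutation p = 0.00216, the smallest that 6 against 6 livers allow). Across the members, non-overlapping groups with HuR KD lower were seen for Calu, Herpud1 and Ssr1, 3 of 39 where 1.23% of all genes did so, and with HuR KD higher for no member, where 1.25% of all genes did so.

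Calr (ENSMUSG00000003814.8, chr8:84841850-84846934, minus strand), the lectin chaperone calreticulin, ran from 484 through 595 to 694 TPM with HuR KD and from 617 through 773 to 894 TPM with LacZ. Only LacZ 4, at 617 TPM, fell within the knockdown range. Its mean was 77.1% of LacZ (log2 fold change -0.38 ± 0.12, limma adjusted p = 0.132). Canx, the membrane-bound relative calnexin, had a log2 fold change of -0.31 ± 0.12. The cochaperones Dnajc3, Dnajb9 and Dnajb11, which stimulate the ATPase of HSPA5, changed by -0.30, -0.26 and -0.24. The nucleotide exchange chaperone Hyou1 and the small ER-resident factors Manf and Sdf2l1 had larger changes of -0.53, -0.58 and -0.65, with wider errors (SE 0.17, 0.20 and 0.28). The call of Dnajb11 was lost without HuR KD 3, 4, 5 or 6 or LacZ 1 or 3 (-0.31 to -0.19 over all livers left out), that of Dnajb9 without HuR KD 4, 5 or 6 or LacZ 1, 3, 4 or 6 (-0.30 to -0.17), and that of Sdf2l1 without HuR KD 3, 4 or 5 or LacZ 1, 2 or 3 (-0.78 to -0.51).

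Among human chaperones 2 of 10 tested fell and none rose. DNAJC3 (ENSG00000102580.15), also known as P58IPK, was at 26.0, 24.9, 29.4 and 27.7 TPM with HuR KD and at 47.2, 37.5, 39.1 and 45.5 TPM with LacZ. All 4 knockdown livers were below all 4 controls, and the mean was 63.8% of LacZ (log2 fold change -0.63 ± 0.13, limma adjusted p = 0.0936, exact permutation p = 0.0286). CALU (ENSG00000128595.17) was at 12.7, 13.5, 18.6 and 16.9 TPM with HuR KD and at 24.0, 19.7, 21.1 and 28.8 TPM with LacZ. Here too the groups did not overlap, with HuR KD 3 the closest to a control, and the mean was 65.9% of LacZ (log2 fold change -0.57 ± 0.17, limma adjusted p = 0.244). CALU and DNAJC3 thus fell in both tables. Among the human members, groups did not overlap for 4 with HuR KD lower (CALU, DNAJC3, SEL1L and SSR3), where 5.03% of all genes did so, and for 2 with HuR KD higher (CREB3L3 and CRELD2), where 2.13% did.

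HSPA5 (ENSG00000044574.8) was at 37.0, 41.1, 46.6 and 37.1 TPM with HuR KD and at 57.2, 41.1, 49.3 and 73.6 TPM with LacZ. LacZ 2 lay within the knockdown range and LacZ 4 well above all other livers. The log2 fold change of -0.42 ± 0.19 did not pass the threshold (unadjusted limma p = 0.0516, limma adjusted p = 0.437, exact permutation p = 0.0857). It passed with a pseudocount of 0.1, without the filter, with quantile normalization, with array weights, and without HuR KD 3 (-0.48) or LacZ 2 (-0.54). SDF2L1 and MANF had values of -0.70 ± 0.31 and -0.57 ± 0.33 that did not pass either. SDF2L1 did pass with several alternatives (a filter at a mean of 5 TPM, median-of-ratios and quantile scaling, the replicate block, array weights, and without HuR KD 3, LacZ 1 or LacZ 2), and it rested on as few as 8 rebuilt reads in a liver. CALR, HSP90B1, CANX and DNAJB9 were at 0.13, 0.12, 0.03 and 0.14 on the log2 scale, none past the threshold.

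**Figure D2:**
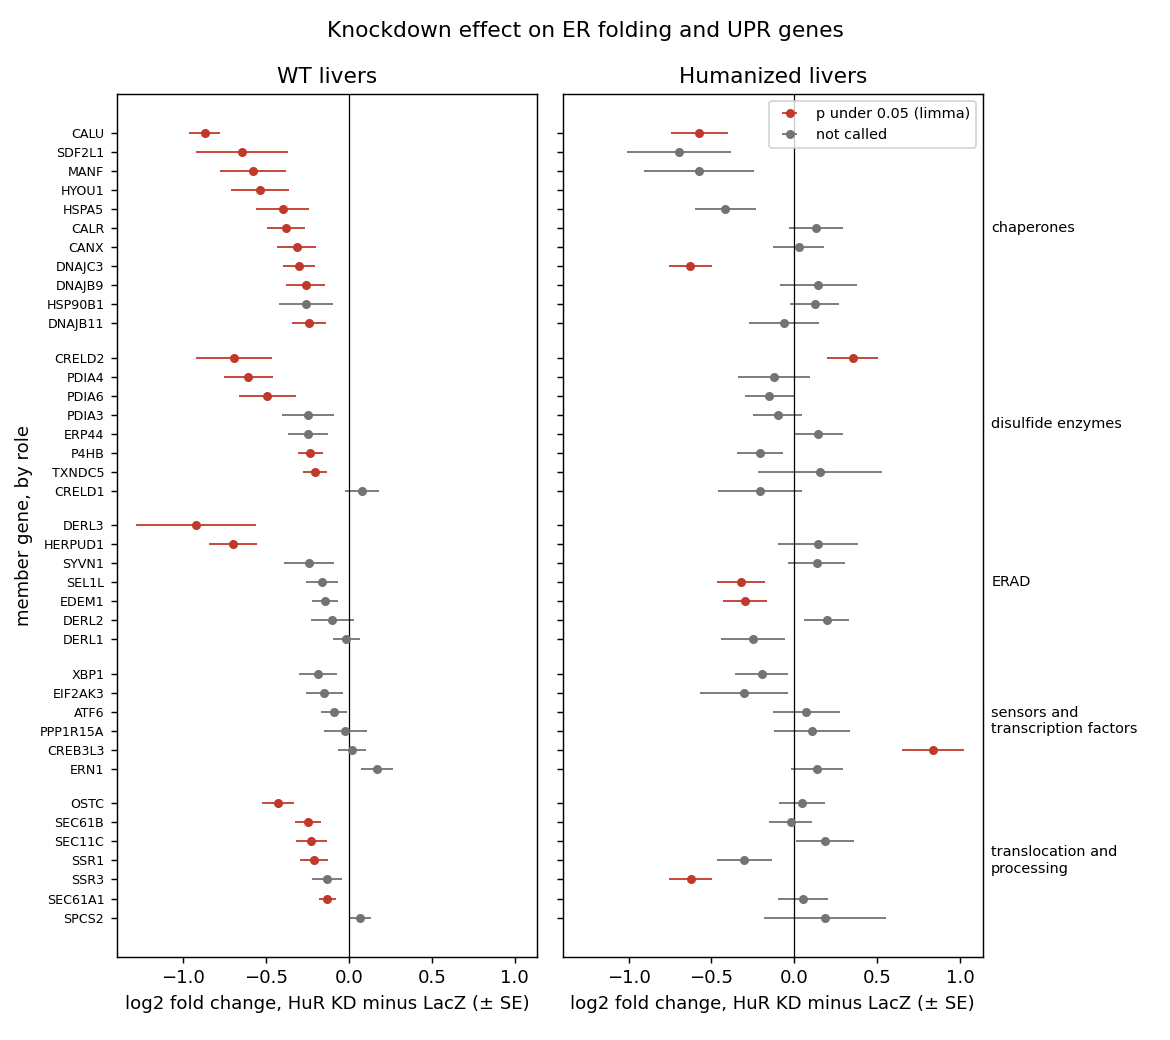
Log2 fold change of each member, HuR KD minus LacZ on the log2(TPM + 1) scale, with its standard error from limma, in WT livers (left) and humanized livers (right), by role. Red points passed an unadjusted p of 0.05: 22 in WT livers, all below 0, and 7 in humanized livers, 5 below and 2 above 0.

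Of the 8 disulfide enzymes, 5 fell in WT livers and none rose, with a median of -0.25. Pdia4 (ENSMUSG00000025823.9, chr6:47796141-47813430, minus strand), a disulfide isomerase also called ERP72, ran from 184 through 222 to 297 TPM with HuR KD and from 268 through 378 to 412 TPM with LacZ. Only LacZ 4 and 5, the lowest controls, lay within the knockdown range. The mean was 65.7% of LacZ (log2 fold change -0.61 ± 0.15, limma adjusted p = 0.0712).

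P4hb (ENSMUSG00000025130.11, chr11:120560298-120573253, minus strand), which encodes protein disulfide isomerase itself and is also the beta subunit of prolyl 4-hydroxylase, was the most abundant member in WT livers. It ran from 887 through 952 to 1138 TPM with HuR KD and from 1082 through 1155 to 1214 TPM with LacZ. HuR KD 3 lay within the control range, while the other 5 knockdown livers were below it, HuR KD 1 by a narrow margin. This small change, to 85.5% of LacZ (log2 fold change -0.23 ± 0.07, limma adjusted p = 0.154), stood against a spread among controls of only 4.76% (coefficient of variation). Creld2, Pdia6 and Txndc5 also fell, by 0.69, 0.49 and 0.20 on the log2 scale, and Pdia3, Erp44 and Creld1 did not pass (-0.25, -0.25 and 0.08).

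CRELD2, an ER-resident disulfide isomerase secreted under ER stress, was called in opposite directions. In WT livers it ran from 33.4 through 45.1 to 59.6 TPM with HuR KD and from 46.0 through 75.0 to 113 TPM with LacZ. The human gene was low, at 3.48, 4.03, 4.72 and 3.19 TPM with HuR KD and at 2.79, 2.64, 2.62 and 3.09 TPM with LacZ. The 4 human knockdown values were all above the controls, the closest pair being 3.19 and 3.09 TPM, for a log2 fold change of 0.35 ± 0.15 (limma adjusted p = 0.426). That call rested on 26 to 183 rebuilt reads per liver and was lost without HuR KD 1, 2 or 3 or LacZ 1, 2 or 3, over a range of 0.27 to 0.42.

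No other disulfide enzyme passed in the humanized livers. P4HB (ENSG00000185624.15) was at 230, 264, 329 and 290 TPM with HuR KD and at 297, 324, 331 and 323 TPM with LacZ. HuR KD 3 lay within the narrow control range and HuR KD 1 far below it, and the log2 fold change was -0.21 ± 0.14 (limma adjusted p = 0.636, exact permutation p = 0.114). PDIA4, PDIA6 and PDIA3 were at -0.12, -0.15 and -0.10.

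Among the 7 ERAD genes, 2 fell in WT livers, where 6.94% of all genes fell. Herpud1 (ENSMUSG00000031770.16, chr8:94386438-94395377, plus strand), a membrane scaffold of the HRD1 ubiquitin ligase complex, ran from 325 through 374 to 387 TPM with HuR KD and from 444 through 588 to 796 TPM with LacZ. The knockdown livers formed a tight band below every control, while the controls spread 1.79-fold. The mean was 60.0% of LacZ (log2 fold change -0.70 ± 0.14, limma adjusted p = 0.0454, exact permutation p = 0.00216).

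Derl3 (ENSMUSG00000009092.5, chr10:75893413-75895941, plus strand), a derlin of the retrotranslocation channel, was scarce and had the largest fold. It ran from 0.566 through 1.11 to 2.55 TPM with HuR KD and from 1.09 through 3.38 to 7.52 TPM with LacZ. The control livers alone spanned 6.88-fold, with LacZ 4 and 5 inside the knockdown range. Its log2 fold change was -0.92 ± 0.36 (limma adjusted p = 0.235, exact permutation p = 0.0498), it rested on as few as 6 rebuilt reads in a liver, and the limma call was lost without HuR KD 4 or 6 or LacZ 2 or 3, with values from -1.13 to -0.72 over all livers left out. The other derlins Derl1 and Derl2, the ligase Syvn1, its adaptor Sel1l and the mannosidase-like Edem1 did not pass, with values from -0.24 to -0.02.

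The human ERAD genes that fell were other ones, 2 of 6 tested. SEL1L (ENSG00000071537.14) was at 46.0, 43.3, 49.9 and 45.3 TPM with HuR KD and at 58.8, 50.2, 52.8 and 71.7 TPM with LacZ. HuR KD 3 and LacZ 2 almost met, at 49.9 and 50.2 TPM, and the log2 fold change was -0.32 ± 0.14 (limma adjusted p = 0.434). EDEM1 (ENSG00000134109.11) was at 17.0, 18.1, 17.1 and 17.1 TPM with HuR KD and at 23.1, 17.7, 21.7 and 24.0 TPM with LacZ. Only LacZ 2 lay within the knockdown range, and the log2 fold change was -0.30 ± 0.13 (limma adjusted p = 0.434, exact permutation p = 0.0571). Both were just under the threshold, with unadjusted limma p of 0.0497 and 0.0496, and both calls were lost when any liver other than LacZ 2 was left out (-0.39 to -0.22 for SEL1L, -0.39 to -0.25 for EDEM1). HERPUD1 ran from 24.4 to 29.9 TPM with HuR KD, inside the control range of 16.9 to 33.4 TPM.

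Of the 6 sensors and transcription factors, 0 passed in WT livers at an unadjusted limma p under 0.05, with a median of -0.05, while limma voom on rebuilt reads called 1, Ern1, higher. Xbp1 (ENSMUSG00000020484.19, chr11:5520659-5525893, plus strand), whose messenger RNA is spliced by ERN1 to give the active factor, ran from 86.5 through 126 to 136 TPM with HuR KD and from 109 through 138 to 161 TPM with LacZ. HuR KD 6 and LacZ 2 were the lowest livers of their groups, and the log2 fold change was -0.18 ± 0.11 (limma adjusted p = 0.469). It passed the unadjusted threshold with array weights, without LacZ 2 (-0.25) and without both (-0.16). Gene levels do not separate spliced from unspliced Xbp1, so its activity was not measured. Ern1 (ENSMUSG00000020715.9, chr11:106394650-106487852, minus strand) ran from 15.5 through 16.6 to 22.2 TPM with HuR KD and from 12.9 through 15.5 to 17.8 TPM with LacZ. HuR KD 1 and 2 exceeded all controls and the rest overlapped them (log2 fold change 0.17 ± 0.10, limma adjusted p = 0.426).

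Of the human genes of this role 1 of 6 rose and none fell. CREB3L3 (ENSG00000060566.14), a liver transcription factor that is held in the ER membrane, cut like ATF6 and known for control of triglyceride metabolism, was at 28.8, 26.5, 31.2 and 21.2 TPM with HuR KD and at 15.7, 17.8, 10.6 and 14.8 TPM with LacZ. Every knockdown liver was above every control, and the mean was 183% of LacZ (log2 fold change 0.84 ± 0.19, limma adjusted p = 0.111, exact permutation p = 0.0286). XBP1 (ENSG00000100219.16) was at 134, 138, 168 and 178 TPM with HuR KD and at 194, 142, 174 and 201 TPM with LacZ. These ranges overlapped, and the log2 fold change of -0.20 ± 0.16 did not pass (limma adjusted p = 0.702). EIF2AK3, ATF6, ERN1 and PPP1R15A, the phosphatase subunit that reverses PERK signalling, were at -0.31, 0.07, 0.14 and 0.11, none past the threshold.

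Translocation and processing genes fell by small amounts in WT livers, 5 of 7 with a median of -0.21. Ostc (ENSMUSG00000041084.8, chr3:130695912-130709444, minus strand), a subunit of the oligosaccharyltransferase that glycosylates chains as they enter the ER, ran from 15.2 through 19.6 to 22.4 TPM with HuR KD and from 22.1 through 27.2 to 30.8 TPM with LacZ. Only LacZ 5, at 22.1 TPM, met the knockdown range, and the mean was 73.6% of LacZ (log2 fold change -0.43 ± 0.10, limma adjusted p = 0.0613). Sec61b (ENSMUSG00000053317.11, chr4:47474658-47483242, plus strand), the beta subunit of the channel, ran from 26.5 through 28.2 to 34.8 TPM with HuR KD and from 30.7 through 35.5 to 38.1 TPM with LacZ. HuR KD 3 was the knockdown liver inside the control range, and the log2 fold change was -0.25 ± 0.08 (limma adjusted p = 0.15). The channel subunit Sec61a1, the signal peptidase subunit Sec11c and the translocon-associated Ssr1 fell by 0.13, 0.23 and 0.21 on the log2 scale, and Ssr3 and Spcs2 did not pass (-0.13 and 0.07). Sec61a1 lost its call without HuR KD 4 or 5 or LacZ 1 or 3 (-0.15 to -0.11), Sec11c without HuR KD 4 or 6 or LacZ 1, 3 or 6 (-0.26 to -0.17) and Ssr1 without LacZ 1 (-0.23 to -0.13 over all livers left out).

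SSR3 (ENSG00000114850.6), a subunit of the translocon-associated protein complex, was the 1 gene of this role that fell in the humanized livers. It was at 27.0, 26.2, 31.4 and 25.6 TPM with HuR KD and at 42.4, 39.7, 49.2 and 40.9 TPM with LacZ. The groups were far apart, and the mean was 64.0% of LacZ (log2 fold change -0.63 ± 0.13, limma adjusted p = 0.0936, exact permutation p = 0.0286). SSR1 (ENSG00000124783.14) of the same complex was at 11.3, 8.11, 11.7 and 9.62 TPM with HuR KD and at 15.3, 11.4, 10.8 and 13.6 TPM with LacZ. LacZ 2 and 3 lay within the knockdown range, and the log2 fold change of -0.30 ± 0.16 did not pass (limma adjusted p = 0.527).

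**Figure D3:**
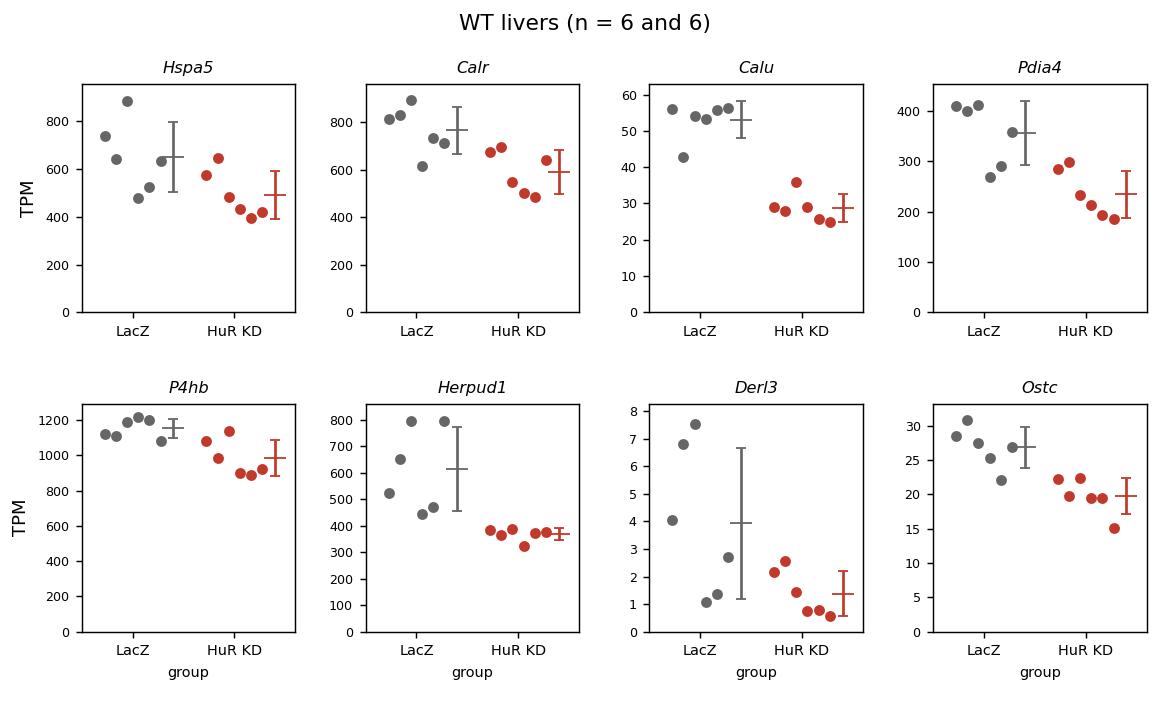
TPM in each WT liver for 8 members, with LacZ in grey and HuR KD in red (points, in replicate order within a group) and the mean and SD of each group beside them (n = 6 and 6, axes from 0). Calu and Herpud1 do not overlap between groups, while Derl3 ranges from 1.09 to 7.52 TPM among the controls.

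**Figure D4:**
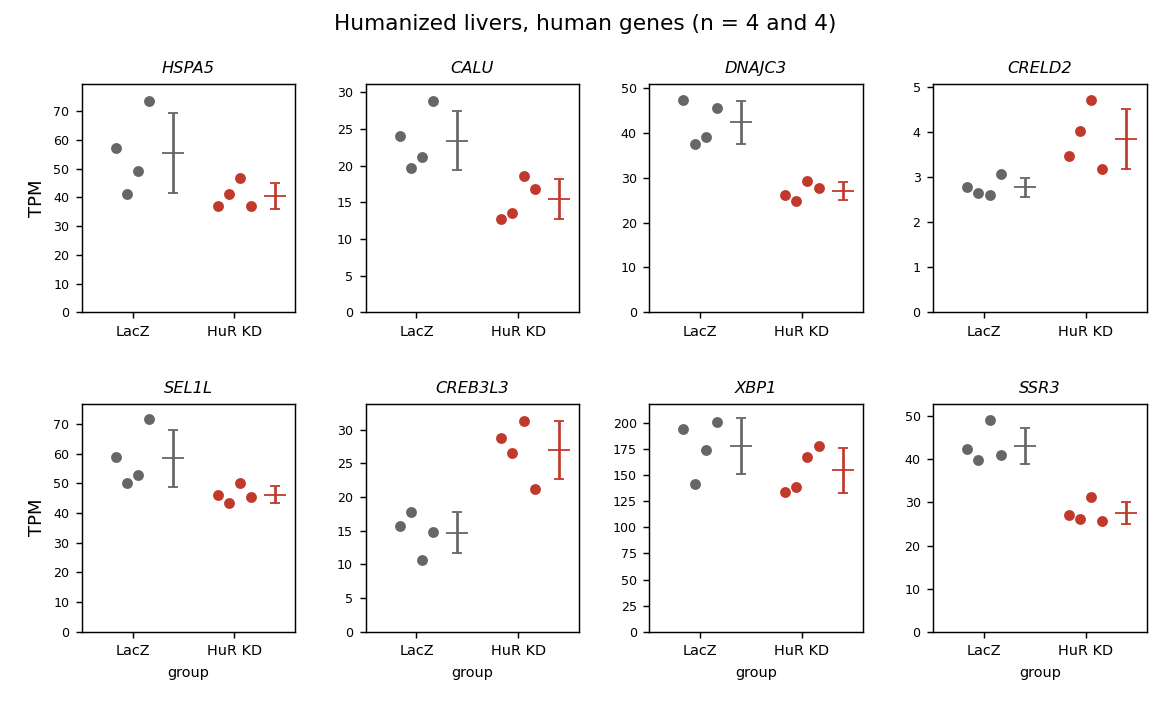
TPM in each humanized liver for 8 human genes, drawn the same way (n = 4 and 4, axes from 0). CALU, DNAJC3 and SSR3 are lower and CREB3L3 higher in all 4 knockdown livers than in any control, while HSPA5 and XBP1 overlap.

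The same livers were high or low for many members. LacZ 3 was the highest WT control for 17 of 39 members and LacZ 1 for 10, while LacZ 4, 2 and 5 were the lowest for 15, 12 and 11. Of the knockdown livers, HuR KD 2 and 1 were highest for 15 and 12 members and HuR KD 6 lowest for 22. As a median over the members, log2 values relative to the LacZ mean ran from -0.15 in LacZ 5 to 0.19 in LacZ 3, and from -0.49 in HuR KD 6 to -0.08 in HuR KD 2. The ranges overlapped in HuR KD 1 and 2, which lay above LacZ 4 and 5. The spread among controls differed between genes: the coefficient of variation was 69.4% for Derl3, 39.9% for Sdf2l1 and 35.4% for Creld2, but 3.11% for Sec61a1, with a median of 12.4% over the members, 15.4% over all genes tested and 10.7% over those at a mean of at least 10 TPM. Among humanized livers HuR KD 3 was the highest knockdown liver for 27 of 37 members, and its median was 0.16 while that of the other 3 lay between -0.15 and -0.09. Over all human genes tested HuR KD 3 also had a median of 0.10.

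The effect was compared between tables in a joint limma fit over the 8202 genes tested in both. For 8 of 37 members the difference passed an unadjusted p under 0.05, where 19.7% of all genes did, and for 2 it passed the adjusted threshold, where 5.01% of all genes did. CRELD2 differed by 1.04 ± 0.30 on the log2 scale (humanized minus WT, limma adjusted p = 0.0452) and CREB3L3 by 0.82 ± 0.18 (limma adjusted p = 0.0119). The other 6 were HERPUD1 (0.84), CALR (0.51), OSTC (0.47), SEC11C (0.41), DNAJC3 (-0.33) and SSR3 (-0.50). The fold change was higher in the humanized livers for 67.6% of members and 38.1% of all genes, and 15 members were above 0 there and below 0 in WT livers. With median-of-ratios scaling 15 members differed, where 20.6% of all genes did, and with quantile normalization 14, where 22.5% did. Calu and Dnajc3 were called lower in both tables, Creld2 was called in both with opposite signs, 4 members were called in the humanized livers alone and 17 in the WT livers alone. A call in a single table does not show that the effects differ. Among the 17, HSPA5 (-0.42 humanized, -0.40 WT), SDF2L1 (-0.70, -0.65), MANF (-0.57, -0.58) and P4HB (-0.21, -0.23) had close values. HERPUD1, CALR, OSTC and SEC11C of the 17 differed between tables, as given above.

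Members with an ERSE in the mouse promoter were described beside those without. In WT livers 7 of the 9 fell (Hspa5, Calr, Canx, Dnajc3, Pdia6, Creld2 and Derl3), with a median log2 fold change of -0.38, and Hsp90b1 and Syvn1 did not pass. Of the 23 members whose promoter sequence lacked it, 10 fell, with a median of -0.20. Over all mouse genes tested 6.94% fell. The split follows the roles in part, since Hspa5, Hsp90b1, Calr, Canx and Dnajc3 of the 9 are chaperones. Of the 11 chaperones 10 fell, also at a median of -0.38. Calu, Dnajb9, Dnajb11 and Sdf2l1, chaperones whose promoter sequence lacked an ERSE, fell too. The part of the element in these values was not tested. Both members with ERSE-II, Herpud1 and Dnajb11, fell, while of 7 tested genes outside the list that hold it none was called by limma at an unadjusted p under 0.05 (median -0.003). Outside the list 27 genes had an ERSE and 7 of these were tested, of which 1 fell (Acnat2, -0.60) and 1 rose (Acacb, 0.29). A match of letters is not a bound site, and human promoters are not analysed here.

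Of 101 other ER genes taken from the same pathways, 96 were tested in the WT livers and 19 fell while 3 rose, or 19.8% lower where 6.94% of all genes were, with a median of -0.03. Fam8a1, a cofactor of the HRD1 ligase, was at 29.6 ± 2.00 TPM with HuR KD and 50.1 ± 7.37 TPM with LacZ (SD, n = 6, log2 fold change -0.73 ± 0.10, limma adjusted p = 0.00512). The export receptor Lman1 changed from 77.8 ± 3.09 to 63.4 ± 3.86 TPM (-0.29 ± 0.05, limma adjusted p = 0.0346) and the translocation factor Sec62 from 75.4 ± 6.82 to 52.9 ± 7.95 TPM (-0.51 ± 0.10, limma adjusted p = 0.0433). By list, lower calls were 3 of 23 for other folding enzymes, 2 of 19 for other ERAD, 8 of 28 for translocon, signal recognition and glycosylation genes, 1 of 14 for other UPR signalling and 5 of 12 for ER export. For the human genes 13 of 95 fell, or 13.7%, and 2 rose (median -0.11), where 7.87% of all genes fell and 3.60% rose, and none passed the adjusted threshold. With median-of-ratios or quantile scaling 12 fell and 6 rose (medians -0.03 and -0.05). The smallest p there were those of EDEM2, a mannosidase-like ERAD factor (-0.68 ± 0.14), MBTPS1, the protease that cleaves ATF6 (-0.69 ± 0.15), and LMAN2, a cargo receptor (-0.58 ± 0.14), with limma adjusted p of 0.0906, 0.104 and 0.134. By list, lower calls in the humanized livers were 5 of 23, 1 of 18, 2 of 29, 2 of 13 and 3 of 12, in the same order.

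Some markers of Kupffer cells and of T and NK cells were lower with HuR KD in WT livers, where 6.94% of all genes fell. Endothelial markers summed to 126 to 159 TPM with HuR KD and to 125 to 155 TPM with LacZ, and 1 of 6 rose. Stellate cell and fibroblast markers summed to 93.3 to 134 and 109 to 139 TPM, and 1 of 7 fell. Cholangiocyte markers summed to 31.9 to 44.8 and 25.5 to 48.4 TPM, and none of the 2 tested was called. The 9 Kupffer cell markers summed to 446 to 748 TPM with HuR KD and to 624 to 850 TPM with LacZ, and 5 of the 9 fell, with none at 0. The 8 T and NK cell markers summed to 8.97 to 21.2 TPM and 14.7 to 29.8 TPM, and 2 fell. The 10 plasma and B cell markers, cells in which Derl3, Creld2 and Sdf2l1 are also high, summed to 19.4 to 41.5 TPM with HuR KD and 22.2 to 33.8 TPM with LacZ, with 3 of the 10 high enough to be tested and none of these called. Of the most abundant, Igkc was at 8.13 to 27.2 TPM with HuR KD and 10.8 to 15.9 TPM with LacZ, and Ighm at 5.42 to 11.6 and 6.58 to 12.7 TPM. Jchain was at 0.266 to 0.716 TPM with HuR KD and 0.618 to 1.07 TPM with LacZ, Mzb1 was at most 0.276 TPM in any liver, and Tnfrsf17 was at 0 in all knockdown livers and at most 0.0793 TPM in controls. The part of these cells in the values of the members was not tested. In the humanized livers the 7 stellate cell and fibroblast markers summed to 2.79 to 4.88 TPM with HuR KD and 5.26 to 7.37 TPM with LacZ (2 of 7 tested, 1 fell). RELN was at 0.50 to 1.22 TPM with HuR KD and 1.48 to 4.12 TPM with LacZ, while PDGFRB overlapped (1.30 to 3.15 and 0.86 to 3.30 TPM). COL3A1 was listed at 0 in all 4 knockdown livers and COL1A1, COL1A2 and DCN at 0 in some. These collagen genes and DCN were at most 0.385 TPM in any control, too low to compare. The 5 cholangiocyte markers summed to 5.26 to 29.4 and 11.5 to 44.4 TPM (4 tested, 2 fell), with SPP1 listed at 0 in some knockdown livers and KRT19 at 0 in some livers of both groups. Their part was not tested either.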

How the data were processed

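Libraries were strand-specific. The authors trimmed reads (with Trim Galore per the labels, with cutadapt per the methods of the study), aligned them with HISAT2 (mouse mm10 for WT livers, a combined human GRCh38 and mouse index for humanized livers), counted them with featureCounts (Subread) and deposited TPM values per gene, one table per model. The TPM formula and gene lengths are not given in the sources used here. Groups were taken from the sample titles, and all deposited columns were used.

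Tests were run with limma 3.58.1 (R 4.3.3) on log2(TPM + 1), within a table, over genes with a mean of at least 1 TPM (12738 human, 15090 mouse). Fold changes on this scale understate changes of low genes. The call threshold was a p of 0.05 before adjustment, which the study's methods also use, and Benjamini-Hochberg adjusted values over all genes are given beside it. Single members were also tested by exact two-sided permutation of mean TPM, for 39 members in WT and 37 in humanized livers. On simulated data, changes of 1.5 on the log2 scale in 200 genes were called in 98.5% (WT) and 93.0% (humanized), with 5.06% and 4.94% of unchanged genes called. No member changed by as much as 1.5, so these rates do not tell how often changes of the members' size are called. Whole reads were rebuilt from the TPM values of each gene in its libraries (genes with values in at least 4 libraries, all of which could be solved, and 99.6% right on simulated data), which gives the read totals. These are an estimate, and depth limits low members most. Promoters (RefSeq, GRCm38.p6) were searched with Python 3.11.15, and mouse coordinates are from GENCODE M21 on the same build.

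The members, gene lists and tests were chosen with earlier results of these data known. All 39 members were described by role. HSPA5, XBP1, ELAVL1 and the 2 members of each role with the smallest limma p in a table were given in full, and of the other ER genes the 3 with the smallest p. CRELD2 in WT livers was added since the human gene was called with the opposite sign, and Acnat2 and Acacb were named after their values were seen. Same-numbered livers did not deviate together, so no pairing was used. Alternatives were other pseudocounts, filters, scalings and variance models, a replicate block, recovered reads with limma voom, and each liver left out. The pairs of deep or shallow livers left out, and array weights, were chosen after seeing the data.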

Additional observations from a re-analysis of the deposited data

Results flagged for a closer look

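Values far from the others of their group were looked for in 156 groups of values (Dixon's test at 95%, which chance passes in about 1 group in 20), and 12 were found. Of these, 5 were the lowest value in WT HuR KD 6: Derl2 (14.8 TPM, others 22.4 to 25.1), Dnajb9 (30.1, others 42.6 to 47.9), Erp44 (18.2, others 26.9 to 32.1), Ssr1 (13.5, others 18.3 to 19.4) and Xbp1 (86.5, others 120 to 136). WT LacZ 2 was lowest for Calu (42.9 TPM, others 53.3 to 56.3) and WT HuR KD 4 was lowest for Herpud1 (325 TPM, others 364 to 387). Among humanized livers, HuR KD 3 was highest for CANX (8.54 TPM, others 6.36 to 6.69) and HERPUD1 (29.9, others 24.4 to 25.2), HuR KD 2 was highest for EDEM1 (18.1, others 17.0 to 17.1), LacZ 4 was highest for DNAJB11 (11.02, others 6.42 to 7.07), and LacZ 2 was lowest for MANF (6.81, others 16.6 to 18.1).

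The effect of HuR KD differed between humanized and WT livers past the adjusted threshold for CREB3L3, by 0.82 on the log2 scale (limma adjusted p = 0.0119), and for CRELD2, by 1.04 (limma adjusted p = 0.0452). These were 2 of 37 members, where 5.01% of all genes passed, so the count was near the share over all genes. Human CRELD2 rested on 26 to 183 rebuilt reads per liver, and its call was lost without HuR KD 1, 2 or 3 or LacZ 1, 2 or 3. CREB3L3 was higher in 4 of 4 humanized knockdown livers than in any control and had a log2 fold change of 0.02 in WT livers. Species, host strain, graft, shRNA sequence, read length, alignment index and table differ together between these models and cannot be told apart.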

How the results depend on the processing

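The direction of every member given in full or called was kept under all alternatives run. The count of members called in WT livers was 22, or 15 to 25 when single livers were left out, in part other genes, and 2 at an adjusted p under 0.05. The count of 7 in the humanized livers became 4 without mitochondrially encoded genes, 4 with limma voom on recovered reads and 0 at an adjusted p, and ranged from 4 (without HuR KD 1, 2 or LacZ 3) to 11 (without LacZ 2). CREB3L3, CALU, DNAJC3 and SSR3 were called in all settings except the adjusted one, and CRELD2, EDEM1 and SEL1L were not. Other ER genes called in the humanized livers were 15, or 7 without mitochondrially encoded genes and 0 adjusted (10 to 17 with single livers left out), and in WT livers 22, or 3 adjusted (16 to 24). The human ELAVL1 change of -0.59 did not pass adjustment (limma adjusted p = 0.214) and ranged from -0.66 to -0.46 with livers left out, and the mouse one from -0.87 to -0.77. Members that differed between tables were 8, or 15 with median-of-ratios scaling, 14 with quantile normalization and 2 adjusted (6 to 10 with single livers left out). The causes were not tested.

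A fit with the replicate number as a block called 21 members in WT livers and 5 in humanized livers, and 19 and 14 other ER genes. Deviations of same-numbered livers correlated at -0.25 to 0.14 in humanized and -0.14 to 0.21 in WT livers, and not every liver correlated best with its own number, so the numbers are not read as pairs. Depth limited SDF2L1, SPCS2 and Derl3 most, with as few as 8, 5 and 6 rebuilt reads in a liver.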
